A study of Mus musculus with 12 samples.

Results

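The mouse T cell receptor β (TRB) segments TRBV20, TRBV23, TRBV24, TRBV26, TRBV30 and TRBV31 are V segments from the end of the Trb locus nearest to the D and J segments, together with TRBV31, which lies beyond them in the opposite orientation. A cell was counted for a segment when its TRB contig with the most unique molecular identifiers (UMIs), here called its first TRB, carried that V segment. The 6 segments accounted for 5856 of 76281 cells with a TRB (7.68%), within a table of 100540 cells. Counted as clonotypes, meaning 1 count per V segment, J segment and nucleotide CDR3 in a library, they accounted for 4080 of 53388 (7.64%). TRBV31 was the first TRB of 2207 cells, TRBV26 of 1543, TRBV20 of 1505, TRBV23 of 364 and TRBV30 of 237. TRBV24 was found in 0 of 104555 TRB contigs, and a count of 0 allows up to 3 contigs. With no contig, TRBV24 has no values below. GENCODE types Trbv24 as a pseudogene, as it does Trbv10, whose segment was at a median of 4.45% of clonotypes, and the table held 0 contigs that were not productive.

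Spleens of wild-type C57BL/6 mice were the source of the CD8+ T cells. Anti-CD137 (clone 3H3, against a costimulatory receptor of activated T cells) was given at 10 µg to 5 mice, and control Ig (clone HRPN) at 100 µg to 10 mice, in both cases on 2 days a week over 14 days. High CD44 was required of all cells, which were then sorted into effector cells (Teff, PD1 negative), precursor exhausted cells (Tpex, positive for PD1 and Slamf6, negative for Tim3) and exhausted cells (Tex, positive for PD1 and Tim3, negative for Slamf6). Each treatment and subset gave 1 gene expression library and 1 receptor library, 12 samples in all, and nothing ties cells to single mice. The files used here hold no values of named genes, so the sorted types could not be set against their marker genes.

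A TRB chain is made when a D segment is joined to a J segment and a V segment is then joined to that product. The J segments stand in a pair of clusters, TRBJ1 behind TRBD1 and TRBJ2 behind TRBD2, and a joint to TRBJ2 can replace an earlier joint to TRBJ1 on the same chromosome. Most V segments are joined by deletion of the DNA between them and the D segment, whereas TRBV31 is joined by inversion. The joint is the CDR3, the loop that contacts the peptide, and it runs from the V segment's conserved cysteine into the J segment.

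In the GENCODE M21 annotation of GRCm38 (mm10), Trbv20 lies at chr6:41188273-41188977, Trbv23 at chr6:41216073-41216526, Trbv26 at chr6:41227505-41227993 and Trbv30 at chr6:41281376-41281990, all on the plus strand. Trbv20 ends 344 kb before Trbd1 and Trbv30 ends 251 kb before it. Trbv29, for example, lies between Trbv26 and Trbv30 and is not one of the 6, so these are not all of the segments near the D segments. Trbv31 lies at chr6:41557691-41558452 on the minus strand, 13.8 kb beyond Trbj2-7. The V segment's own contribution to the CDR3 differs between the 5 segments with contigs. From the first base of the cysteine codon to the end of the coding part of the segment, 5′ to 3′ on the coding strand, the GENCODE transcripts read:
TRBV20: tgtggtgctaggga
TRBV23: tgctccagcagtcaatc
TRBV26: tgtgccagcagtctgtc
TRBV30: tgtagttctagaga
TRBV31: tgtgcctggagtct
TRBV23 and TRBV26 bring 17 nucleotides, and TRBV20, TRBV30 and TRBV31 bring 14.

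The libraries differed in how completely receptors were read. A TRB was found in 85.8%, 45.3% and 59.0% of anti-CD137 Teff, Tpex and Tex cells, against 79.5%, 87.5% and 80.7% of control Ig cells. The anti-CD137 Tpex library stood apart: 66.6% of its barcodes with a TRB were missing from the cell table, compared with 14.0% in control Ig Tpex, and its median first TRB had 6 UMIs against 15. Of 95046 barcodes, 5336 occurred in at least 2 libraries, 3052 of them with a TRB in each, and 2 of those had the same TRB. Total UMIs of the gene expression libraries ran between 31252414 in anti-CD137 Tpex and 126261864 in anti-CD137 Teff. Shares have exact Clopper-Pearson 95% intervals and differences between shares Newcombe 95% intervals, neither of which covers more than counting error.

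Together the segments were the first TRB of 7.55%, 6.97% and 14.3% of anti-CD137 Teff, Tpex and Tex cells, against 7.14%, 6.82% and 6.44% of control Ig cells. By clonotypes the lowest library had 7.35% and the highest, anti-CD137 Tex, 9.05%, and in Tpex the order of the treatments turned, with 7.46% in anti-CD137 and 8.19% in control Ig. With 1 library per treatment and subset, no treatment difference has a replicate check. Ranked by the median share of clonotypes over the 6 libraries, the 5 segments took places 17, 18, 19, 21 and 22 among 22 V names, with TRBV31 highest at 2.46% and TRBV30 lowest at 0.264%.

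**Figure D1:**
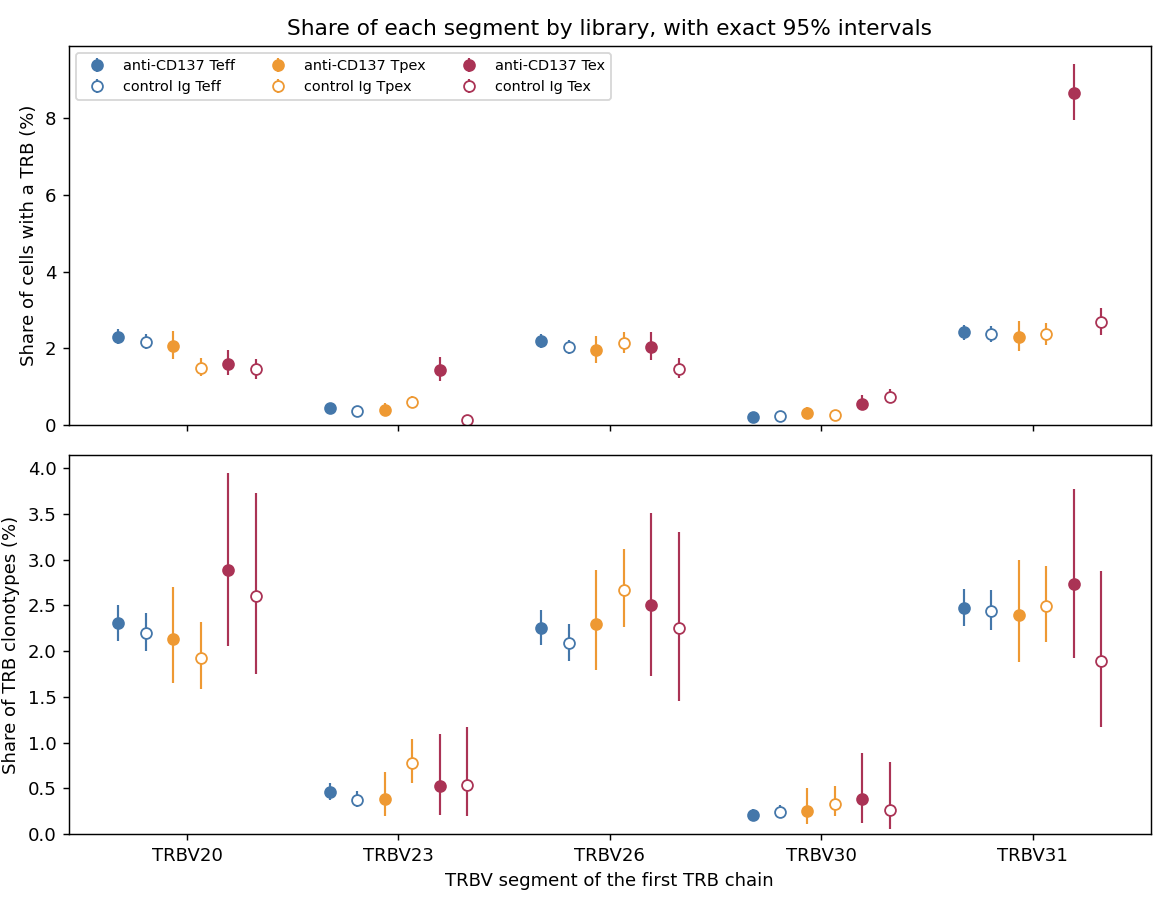
The upper panel plots each segment's share of cells with a TRB and the lower panel its share of clonotypes, both in percent, for the 6 libraries with exact 95% intervals. Filled points are anti-CD137 and open points control Ig. TRBV31 cells in anti-CD137 Tex stand at 8.67% in the upper panel, while the same library stands at 2.74% of clonotypes in the lower one.

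TRBV31 was first TRB in 2.41%, 2.29% and 8.67% of anti-CD137 Teff, Tpex and Tex cells, against 2.37%, 2.36% and 2.68% of control Ig cells. Anti-CD137 Tex was thus the high library and the other 5 lay close together. The difference in Tex was 5.99 percentage points (5.19 to 6.81), a ratio of 3.23. By clonotypes TRBV31 held 36 of 1315 (2.74%, 1.92 to 3.77) in anti-CD137 Tex against 21 of 1112 (1.89%, 1.17 to 2.87) in control Ig Tex, and those intervals overlapped. Without the 10 largest clonotypes of each library, TRBV31 was first TRB in 4.65% of anti-CD137 Tex cells and 2.02% of control Ig Tex cells. In both Tex libraries nearly all TRBV31 cells belonged to clonotypes of more than 1 cell, with 96.6% in anti-CD137 and 93.9% in control Ig.

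TRBV23 was at 0.449%, 0.385% and 1.42% of anti-CD137 Teff, Tpex and Tex cells, against 0.359%, 0.586% and 0.117% of control Ig cells. Its Tex ratio of 12.2 compared 83 cells with 10 cells, and these came from 7 and 6 clonotypes. By clonotypes the share was 0.532% in anti-CD137 Tex and 0.540% in control Ig Tex. In Tpex TRBV23 was the lower one with anti-CD137 by clonotypes, 12 of 3095 (0.388%) against 44 of 5666 (0.777%), a difference of -0.39 points (-0.71 to -0.03).

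TRBV30, the rarest of the 5, was at 0.204%, 0.301% and 0.548% of anti-CD137 Teff, Tpex and Tex cells, against 0.228%, 0.249% and 0.735% of control Ig cells. Both Tex libraries were its highest, and in each 1 clonotype held most of its cells, 78.1% in anti-CD137 and 95.2% in control Ig. TRBV20 was at 2.30%, 2.06% and 1.59% of anti-CD137 Teff, Tpex and Tex cells, against 2.16%, 1.49% and 1.45% of control Ig cells. TRBV26 was at 2.19%, 1.94% and 2.04% of anti-CD137 Teff, Tpex and Tex cells, against 2.02%, 2.13% and 1.46% of control Ig cells. By cells TRBV20 was lowest in control Ig Tpex and Tex, and TRBV26 in control Ig Tex. By clonotypes the order of the subsets differed for TRBV20, which was at 2.31%, 2.13% and 2.89% in anti-CD137 Teff, Tpex and Tex, against 2.20%, 1.92% and 2.61% in control Ig, highest in Tex. TRBV26 was at 2.25%, 2.29% and 2.51% of anti-CD137 Teff, Tpex and Tex clonotypes, against 2.09%, 2.67% and 2.25% of control Ig clonotypes. TRBV30 was at 0.210%, 0.258% and 0.380% of anti-CD137 Teff, Tpex and Tex clonotypes, against 0.242%, 0.335% and 0.270% of control Ig clonotypes. The Tex shares of TRBV20, TRBV26 and TRBV30 by clonotypes rested on at most 38 clonotypes a library, and the intervals of the treatments overlapped.

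Past a ratio of 1.5 between treatments, TRBV31 and TRBV23 were higher by cells in Tex, 2 of 5 segments, where 45.5% of the 22 V names were past it. By clonotypes 0 of 5 were higher in Tex, where 9.09% of names were, and 0 of 5 lower, where 4.55% were. In Tpex TRBV23 was lower by cells, where 13.6% of names were, and lower by clonotypes, where 9.09% were. In Teff 0 of 5 passed in either direction by either count, and 0% of names did. The members' share in Tex is close to that of V names at large.

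The segments had 119 clonotypes in anti-CD137 Tex and 84 in control Ig Tex, and the largest held 22.2% and 23.4% of their cells. Some of the largest of each treatment are printed with the bases that match the germline V segment in capitals. They show how much of each CDR3 was V-encoded and which J segment followed:
TRBV31 in anti-CD137, with TRBJ2-2: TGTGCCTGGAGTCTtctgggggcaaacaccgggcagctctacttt
TRBV31 in control Ig, with TRBJ2-1: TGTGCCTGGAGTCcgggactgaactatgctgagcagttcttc
TRBV23 in anti-CD137, with TRBJ2-4: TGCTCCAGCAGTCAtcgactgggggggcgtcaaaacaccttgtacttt
TRBV30 in anti-CD137, with TRBJ2-1: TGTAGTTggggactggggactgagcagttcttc
TRBV30 in control Ig, with TRBJ1-1: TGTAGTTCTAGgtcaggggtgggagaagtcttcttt
The anti-CD137 TRBV31 clonotype had 191 cells, 185 in Tex, 6 in Tpex and 0 in Teff, and made up 36.6% of TRBV31 cells in that Tex library. A TRA was read in 105 of its cells, and 103 of these had the same TRA, with TRAV3-3 and TRAJ31. The control Ig TRBV31 clonotype had 135 cells, 129 of them in Tex, where it was 56.1% of TRBV31 cells. Its most frequent TRA, with TRAV12D-3 and TRAJ9, was in 106 of 125 cells with a TRA.

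The TRBV23 clonotype of anti-CD137 mice had 71 cells, 64 in Tex and 7 in Tpex, and 1 TRA in all 65 cells with one. It made up 77.1% of TRBV23 cells in anti-CD137 Tex. The largest TRBV23 clonotype of control Ig mice, with TRBJ2-7, had 14 cells, 13 in Tpex and 1 in Tex. The largest TRBV30 clonotype had 25 cells in anti-CD137, all in Tex, and 69 cells in control Ig, 60 of them in Tex. For TRBV26 the largest had 35 cells in anti-CD137 and 40 in control Ig. None of the clonotypes described here had a cell in Teff.

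Expanded clonotypes were rare in Teff and common in Tpex and Tex for all 5 segments. Cells in clonotypes of more than 1 cell made up 5.51%, 67.1% and 92.2% of the segments' cells in anti-CD137 Teff, Tpex and Tex, against 5.71%, 52.1% and 91.5% in control Ig. Over the other V segments the same shares were 8.28%, 69.5% and 86.5% with anti-CD137 and 10.5%, 60.6% and 93.1% with control Ig. Of the Tex clonotypes, 47 of 119 (39.5%) were also seen in Tpex with anti-CD137, against 44 of 84 (52.4%) with control Ig. Among the other V segments the shares were close to these, at 407 of 1196 (34.0%) with anti-CD137 and 495 of 1028 (48.2%) with control Ig. Seen from Tpex, the shared clonotypes were 20.3% of 231 with anti-CD137 and 9.48% of 464 with control Ig for the 6 segments, and 14.2% with anti-CD137 and 9.52% with control Ig for the others. TRBV31 had 21 of 36 Tex clonotypes in Tpex with anti-CD137 and 10 of 21 with control Ig. Intervals of the TRBV31 shares, 40.8% to 74.5% and 25.7% to 70.2%, overlapped widely.

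A TRB of these segments with the same V, J and nucleotide CDR3 was found in both treatments 15 times, 7 for TRBV26, 4 each for TRBV20 and TRBV31, and 0 for TRBV23 and TRBV30. These were 0.731% of the segments' 2051 distinct clonotypes with anti-CD137 and 0.784% of 1914 with control Ig. Among the other V segments 475 recurred, 1.94% of those with anti-CD137 and 2.02% of those with control Ig, and the difference was not tested. The chains with the most cells are shown, with the V-matching bases in capitals, because they were read in libraries of both treatments:
TRBV20 with TRBJ2-7: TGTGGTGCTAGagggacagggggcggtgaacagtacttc
TRBV26 with TRBJ2-1: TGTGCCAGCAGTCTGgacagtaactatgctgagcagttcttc
The TRBV20 chain had 17 cells with anti-CD137 and 1 with control Ig. The TRBV26 chain had 1 cell with anti-CD137 and 10 with control Ig. For each of these chains, presence in both treatments rests on that 1 cell.

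Clusters are called by their deposited number. In anti-CD137 Tex, where clusters 3 and 4 held nearly all cells, the segments made up 14.5% of cluster 3 and 14.2% of cluster 4. TRBV31 alone was 8.66% of cluster 3 and 8.70% of cluster 4, so its high share was alike in both. In control Ig Tex the segments made up 6.22% of cluster 3 and 7.34% of cluster 4, and TRBV31 was 2.70% and 2.94% of those clusters. Cluster 1 of control Ig Tex, with 154 cells with a TRB, had 16 cells of the segments (10.4%, 6.06 to 16.3), the highest of that library. That interval overlapped those of clusters 3 (5.69 to 6.79) and 4 (5.58 to 9.45), and 6 of the 16 cells were of 1 TRBV30 clonotype. Across the clusters of Teff with at least 100 cells with a TRB, the combined share lay between 5.27% and 9.96% with anti-CD137 and between 5.26% and 9.29% with control Ig. Across those of Tpex it lay between 6.11% and 6.88% with anti-CD137 and between 6.13% and 9.94% with control Ig. The 1 cluster at the top in anti-CD137 Teff, number 7, had 23 TRBV31 cells of 452 (5.09%, 3.25 to 7.54), against 12 of 512 (2.34%, 1.22 to 4.06) in control Ig Teff.

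Use of the J clusters was compared within each library between a segment and the V segments outside the 6, over clonotypes. TRBV20 was joined to TRBJ2 in 54.6%, 56.1% and 60.5% of anti-CD137 Teff, Tpex and Tex clonotypes, and in 61.6%, 51.4% and 55.2% of control Ig clonotypes. The other V segments were joined to TRBJ2 in 69.1%, 69.0% and 70.6% with anti-CD137 and in 69.3%, 67.9% and 66.9% with control Ig. TRBV20 was below them in all 6 libraries, and the groups of values did not overlap. The mean difference was -12.2 percentage points (SE 1.40, limma with Benjamini-Hochberg adjustment over 19 V segments, adjusted p = 0.00017, 6 libraries). The 3 libraries of a treatment share mice and Tpex and Tex share clonotypes, so the p measures the spread of libraries that are not fully independent.

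TRBV26 was joined to TRBJ2 in 58.9%, 69.0% and 72.7% of anti-CD137 Teff, Tpex and Tex clonotypes, and in 62.2%, 61.6% and 68.0% of control Ig clonotypes. It was lower than the other segments in 3 libraries and higher in 3. The differences were -10.2, -7.04 and -6.35 points in anti-CD137 Teff, control Ig Teff and control Ig Tpex, on 514, 405 and 151 clonotypes. They were 0.05, 2.16 and 1.07 points in anti-CD137 Tpex, anti-CD137 Tex and control Ig Tex, on 71, 33 and 25. The mean difference of -3.38 points, in which each library counts alike, did not pass (SE 1.84, limma adjusted p = 0.157). Pooled over libraries and not tested, TRBV26 had TRBJ2 in 61.6% of clonotypes (58.7 to 64.3), against 69.0% for the other V segments. The inverted TRBV31 was joined to TRBJ2 in 67.4%, 68.9% and 75.0% of anti-CD137 Teff, Tpex and Tex clonotypes, and in 64.9%, 63.1% and 66.7% of control Ig clonotypes. TRBV31 was above the other segments in anti-CD137 Tex, by 4.43 points. It was below them in every other library, at the least by -0.04 points in anti-CD137 Tpex. Its mean difference of -1.13 points (SE 1.44, limma adjusted p = 0.478) did not pass either. Of the 3 members tested, 1 was lower, where 26.3% of the 19 segments were lower. TRBV23 and TRBV30 did not reach 20 clonotypes in every library and were not tested. Over all libraries TRBV23 had TRBJ2 in 169 of 247 clonotypes (68.4%, 62.2 to 74.2) and TRBV30 in 95 of 130 (73.1%, 64.6 to 80.5).

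**Figure D2:**
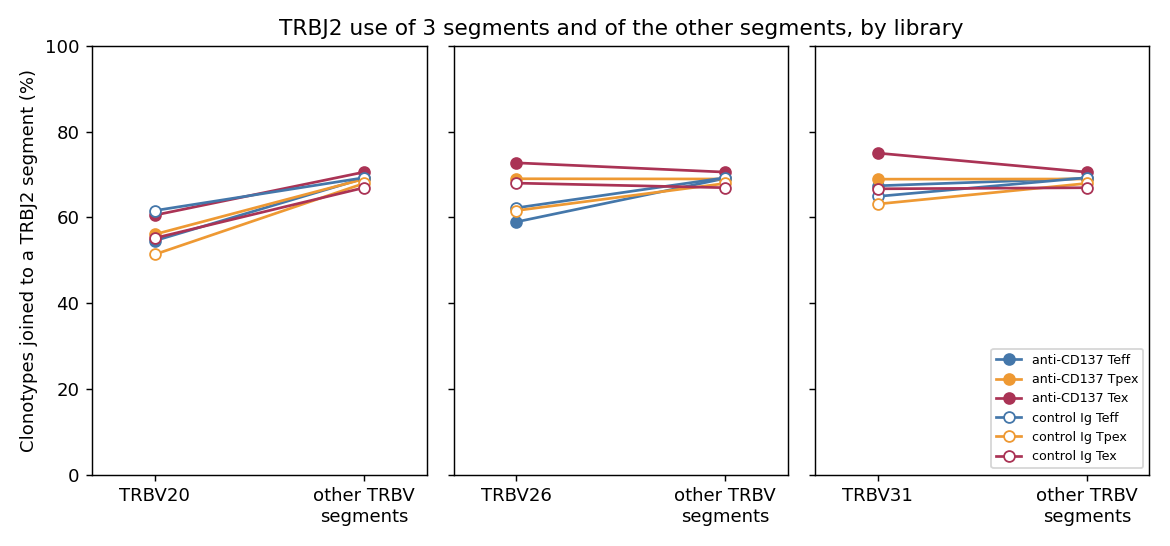
Each panel joins, for 1 library, the share of clonotypes with a TRBJ2 segment for a member (left) and for the V segments outside the 6 (right), in percent. All 6 lines of TRBV20 climb to the right, by 12.2 points on average, whereas those of TRBV26 go both ways. The TRBV31 line falls in anti-CD137 Tex and climbs or stays nearly level in the other libraries.

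By single J segments, TRBV20 used TRBJ2-7 in 238 clonotypes (19.9%) and TRBJ1-1 in 188 (15.7%). The share of TRBJ1-1 for TRBV20 ran between 7.58% and 18.8% over libraries with a median of 12.4%. Among the other V segments it ran between 9.61% and 10.4%, inside the TRBV20 range. TRBJ1-3, picked after its values were seen, ran between 6.65% and 18.4% for TRBV20 and between 3.01% and 4.47% for the others. Single J segments were not tested. TRBV26 used TRBJ2-7 (21.1%) and TRBJ2-1 (16.7%) most, and so did TRBV31 (16.7% and 16.1%), TRBV23 (23.9% and 15.0%) and TRBV30 (26.2% and 20.8%). Among the other V segments TRBJ2-7 took 21.2% and TRBJ2-1 13.8%. Over the 17 tested segments upstream of TRBD1, the distance to TRBD1 and the difference in TRBJ2 share had a Pearson r of 0.08 and a Spearman rho of 0.23, a description across segments read in the same libraries.

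The deposited table also names a D segment in a part of the clonotypes, 26.0% of TRBV20, 22.0% of TRBV26 and 23.8% of TRBV31 chains with TRBJ2. In these chains TRBD2 was named in 38 and TRBD1 in 124 TRBV26 clonotypes, so that TRBD2 had 23.5% (17.2 to 30.7). TRBD2 had 37.3% in TRBV20 (30.1 to 44.9), 58.0% in TRBV31 (50.9 to 64.8) and 49.8% in the other V segments (48.7 to 50.9). TRBV26 was thus the lowest and TRBV31 the highest of these. In the Teff libraries, which held most of these chains, TRBV26 had TRBD2 in 26.1% with anti-CD137 and 20.8% with control Ig. TRBV31 had it there in 61.7% with anti-CD137 and 50.7% with control Ig. The other V segments had it in 49.1% with anti-CD137 and 51.3% with control Ig, so TRBV31 lay above them in the anti-CD137 library and not in the control Ig one, while TRBV26 lay below them in both. A low share was not seen in TRBV26 alone, because TRBV29, which was picked after its value was seen, had 18.4%. These shares pool libraries and were not tested, and D segments are short, so names rest on few bases. In TRBJ1 chains, which TRBD2 does not precede in the locus, a TRBD2 name was given to 1.16% of TRBV26, 3.73% of TRBV20 and 3.75% of TRBV31 clonotypes with a named D, and to 0.729% of the others.

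CDR3 length is given in amino acids, from the cysteine to the last J residue as deposited, averaged over clonotypes. TRBV20 averaged 13.0, 13.4 and 13.3 in anti-CD137 Teff, Tpex and Tex, and 13.1, 12.8 and 12.7 in control Ig, with an SD over clonotypes of 1.36 to 1.61. The other V segments averaged 14.0, 14.0 and 13.9 with anti-CD137 and 13.9 in each subset with control Ig. TRBV20 was shorter in 6 of 6 libraries, by 0.89 residues on average, with no overlap between the 2 sets of means (difference -0.889, SE 0.0866, limma adjusted p = 2.67e-05).

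TRBV26 averaged 13.8, 13.8 and 13.7 residues in anti-CD137 Teff, Tpex and Tex, and 13.7, 13.5 and 13.9 in control Ig. It too was shorter than the others in 6 of 6 libraries, by a smaller amount (difference -0.228, SE 0.0563, limma adjusted p = 0.00673). Counted by cells in place of clonotypes, that call was lost (difference -0.204, limma adjusted p = 0.105). TRBV31 averaged 13.8, 14.0 and 14.1 residues in anti-CD137 Teff, Tpex and Tex, and 13.7, 13.5 and 13.4 in control Ig. It was longer than the others in anti-CD137 Tex and shorter elsewhere, and the difference of -0.177 did not pass (SE 0.0869, limma adjusted p = 0.0935). Without the anti-CD137 Tex library it was -0.254 and passed (limma adjusted p = 0.0172). Of the 3 members tested, 2 were shorter, where 47.4% of the 19 segments were shorter. Not tested, TRBV23 averaged 14.3 residues over 247 clonotypes (SD 1.65) and TRBV30 averaged 13.0 over 130 (SD 1.5).

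The length was then divided into the start that matches the germline V segment, the end that matches the J segment, and the bases between. TRBV20 kept 11.5 V bases on average over libraries, against 13.7 for the other V segments. Its bases between numbered 9.44 against 10.1, and its J part 18.2 against 18.1. Its germline end has 14 bases, and TRBV30, with an end of the same length, kept 10.7 (8.8 to 11.4 over libraries, some with few clonotypes).

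TRBV31 also has 14 germline bases, and it kept 12.3 of them, with the longest J part of the 5 at 18.5 and 10.5 bases between. The whole germline end was intact in 40.0% of TRBV31 and 35.7% of TRBV20 clonotypes, and in 12.6% of TRBV26 clonotypes, whose end is 17 bases long. Among the other V segments with a germline end in the annotation it was intact in 21.0%. TRBV26 kept 13.8 V bases with 9.44 between, and TRBV23 kept 14.3 with 11.0 between. A D or added base that happens to match the germline counts here as V or J, so trimming is understated.

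**Figure D3:**
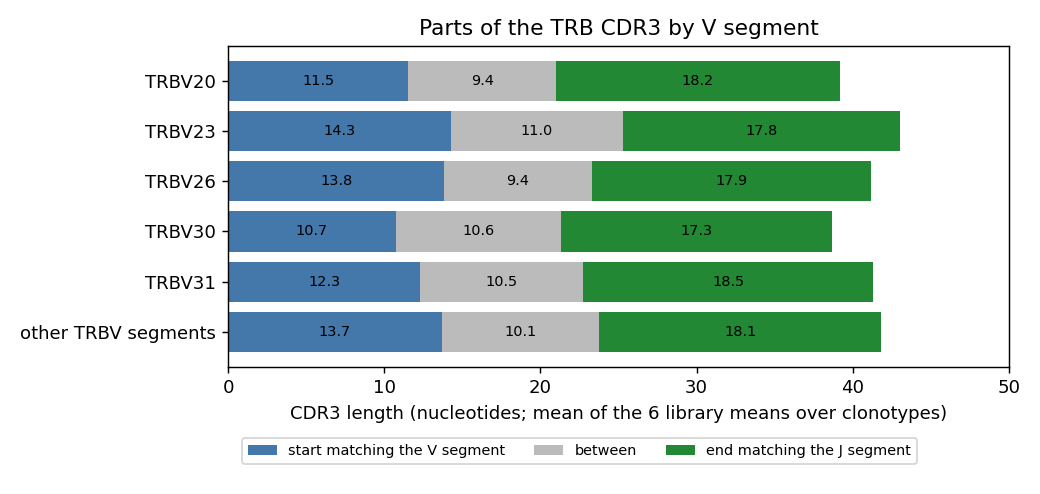
Bars divide the mean CDR3, in nucleotides, into V-matching start, bases between and J-matching end, for each segment and for the other V segments, as the mean of 6 library means. By this mean TRBV20 and TRBV30 have the shortest V parts, 11.5 and 10.7 bases, while TRBV23 has the longest, 14.3 bases. Each library counts alike, and some held as few as 3 TRBV30 or 6 TRBV23 clonotypes. Library means of the V part ran between 8.8 and 11.4 for TRBV30 and between 13.5 and 15.5 for TRBV23.

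In cells with 2 TRB contigs, the second TRB is the one with fewer UMIs. Such cells numbered 8571, or 8094 when each distinct pair of chains was counted once per library, and both contigs had equal UMIs in 685 cells. How many of these barcodes hold more than 1 cell is not known. They made up 14.8%, 17.8% and 3.97% of anti-CD137 Teff, Tpex and Tex cells with a TRB, against 13.4%, 6.41% and 2.87% with control Ig. Of all contigs of a segment in the cell table, the second TRB accounted for 281 of 1824 (15.4%) for TRBV26, 264 of 1769 (14.9%) for TRBV20, 266 of 2473 (10.8%) for TRBV31, 33 of 397 (8.31%) for TRBV23 and 17 of 254 (6.69%) for TRBV30. These shares count every cell and pool the libraries, so their order also carries each segment's mix of libraries. By library, 14.8%, 24.3% and 1.75% of TRBV31 contigs were second in anti-CD137 Teff, Tpex and Tex, against 13.9%, 6.67% and 5.74% with control Ig. For the other V segments the shares were 12.6%, 14.6% and 3.95% with anti-CD137, and 11.5%, 5.75% and 2.73% with control Ig.

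The Tex libraries held only 162 and 89 chain pairs, and with chain pairs counted once no member reached the minimum in all 6 libraries, so the ratio of second to first TRB was tested in the 4 Teff and Tpex libraries, a choice made after seeing the data. TRBV26 was the second chain in 117 and the first in 57 pairs of anti-CD137 Teff, and in 33 and 16 pairs of anti-CD137 Tpex. In control Ig it was the second chain in 81 and the first in 35 pairs of Teff, and in 24 and 11 pairs of Tpex. It was the second chain more often in each of the 4 libraries (mean log2 ratio of shares 1.09, SE 0.08, limma adjusted p = 0.00104). Clonotypes of cells with exactly 1 TRB, each counted once per library, were then used in place of the first chains of pairs. Against them the TRBV26 log2 ratio was 0.49 (limma adjusted p = 0.00639). In Tex, not in the test, it was second in 4 and first in 1 pair with anti-CD137, and second in 3 and first in 4 pairs with control Ig. By cells the control Ig Tex counts were 4 second and 13 first, the opposite order.

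TRBV20 was second in 120 and first in 81 pairs of anti-CD137 Teff, and in 25 and 17 pairs of anti-CD137 Tpex. In control Ig it was second in 81 and first in 63 pairs of Teff, and in 17 and 15 pairs of Tpex. All 4 libraries had more second than first chains (mean log2 ratio 0.41, SE 0.11, limma adjusted p = 0.0445). That call was lost without any 1 of the 4 libraries, with limma adjusted p between 0.0874 and 0.159. Set against clonotypes of cells with exactly 1 TRB, the TRBV20 log2 ratio was 0.47 (limma adjusted p = 0.0214), close to the 0.49 of TRBV26.

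TRBV31 was second in 101 and first in 94 pairs of anti-CD137 Teff, and in 42 and 25 pairs of anti-CD137 Tpex. In control Ig it was second in 76 and first in 74 pairs of Teff, and in 16 and 15 pairs of Tpex. Its mean log2 ratio of 0.24 (SE 0.15, limma adjusted p = 0.248) did not pass. Without anti-CD137 Tpex, the library that stood apart, it was 0.08. With every cell counted TRBV31 could be tested in all 6 libraries, where the log2 ratio was 0.11 (limma adjusted p = 0.561). Set against clonotypes of cells with exactly 1 TRB in the 4 libraries, the TRBV31 log2 ratio was 0.36 (limma adjusted p = 0.0674). Of the 3 members tested, 2 were more often second, where 21.1% of the 19 segments were. TRBV23 was second in 31 and first in 29 pairs over all libraries, and TRBV30 in 17 and 13.

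**Figure D4:**
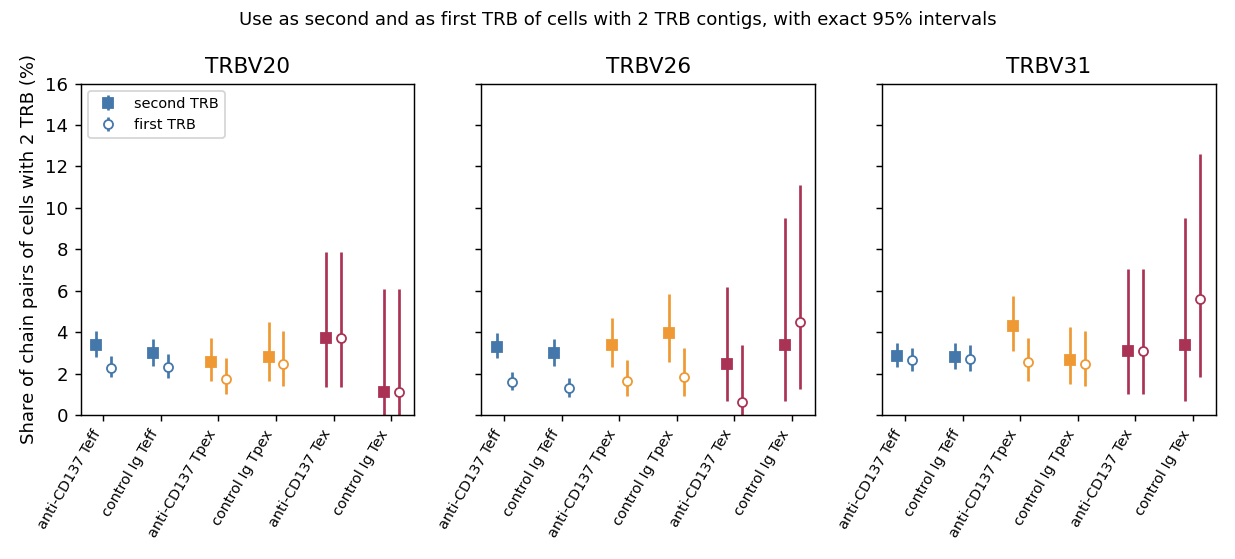
Squares give each segment's share of second TRB chains and open circles its share of first TRB chains, in percent of chain pairs of cells with 2 TRB contigs, by library with exact 95% intervals. For TRBV26 the square lies above the circle in the Teff and Tpex libraries and in anti-CD137 Tex, and below it in control Ig Tex, where the intervals are wide.

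Because second and first are set by UMIs, the UMIs of each segment were read in cells with exactly 1 TRB, where no rank is involved. The median TRBV26 contig there had 7, 6 and 9 UMIs in anti-CD137 Teff, Tpex and Tex, and 7, 12 and 14.5 in control Ig. The other V segments had medians of 9, 7 and 11 with anti-CD137 and 9, 14 and 17 with control Ig. TRBV26 was below them in all 6 libraries. TRBV20 had medians of 8, 6 and 10 with anti-CD137 and 8, 18.5 and 24.5 with control Ig. It lay above the others in the control Ig Tpex and Tex libraries and below them in every other library. These medians are over cells, so expanded clonotypes weigh more. TRBV31 had medians of 8, 6 and 13 with anti-CD137 and 8, 14.5 and 20 with control Ig. The part of these UMI counts in the ratios was not tested.

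The J segments of second chains were also read, pooled over libraries and with no test. TRBJ2 was used by 44.8% of second TRBV20 chains (38.5 to 51.2) against 62.8% of first ones (55.4 to 69.9). For TRBV26 it was 55.0% of second (48.7 to 61.1) against 62.1% of first chains (52.9 to 70.7), and these intervals overlapped. For TRBV31 it was 55.1% of second (48.7 to 61.5) against 68.8% of first chains (62.2 to 74.9). Second chains were lower in all 3, as they were among the other V segments, at 60.7% of second against 73.8% of first chains.

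By likeness of their log2 share of clonotypes over the 6 libraries, TRBV20 was closest to TRBV5 (Pearson r 0.87) and TRBV19 (0.58). TRBV26 was closest to TRBV12-1 (0.57) and TRBV13-1 (0.46), and TRBV31 to TRBV12-1 (0.78) and TRBV14 (0.73). The 6 points share their libraries and depth, and these values are descriptions.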

How the data were processed

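Per the submitters' processing notes, the tools were Cell Ranger 3.0.2 and Seurat 4.0.0 with the mouse build mm10. The deposited receptor table gives, per contig, V, D and J names, the CDR3 and the count of UMIs and reads. For each cell the deposited metadata hold a count of UMIs and of genes, the percent of mitochondrial and ribosomal UMIs, cell cycle score columns and a cluster number, per the file headers. The deposited percent and score columns were not used. Treatment of doublets by the authors is not given in these sources, and no doublet caller could be run without gene values. Library and barcode together matched contigs to cells, and the first TRB had the most UMIs, with ties set by reads and then by CDR3 sequence.

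Members and lists were chosen with earlier results of these data known. Each treatment and subset had 1 library, so treatments were not tested. For TRBJ2 share and CDR3 length, a segment was compared with the V segments outside the 6 within each library. For the second TRB, a segment's share of second chains was compared with its own share of first chains in the same pairs. Each comparison gave 1 value per library for an intercept-only limma fit. The fit took all V segments with at least 20 clonotypes in every library, or at least 10 chain pairs for the second TRB. For ratios, 0.5 was added to each count. Calls had an adjusted p under 0.05, two-sided, and the fit was tested on simulated data. The design named all 6 libraries for the second TRB; no member reached the minimum there with chain pairs counted once, so 4 libraries were used. Germline ends came from GENCODE M21 transcripts, found for 20 of 22 V names and 12 J segments. Clonotypes named were the largest of each segment and treatment and the 5 largest in both treatments, of which 2 are printed; 1 TRBV20 clonotype is not reported here. Single J segments named were the 2 most used of each segment, and like segments the 2 with the highest r. TRBV29, TRBV10 and the J segment TRBJ1-3 were added after their values were seen. Versions were Python 3.11.15, numpy 2.4.6, pandas 2.3.3, scipy 1.17.1, matplotlib 3.10.9, R 4.3.3 and limma 3.58.1. Alternatives are in the closing section.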

Additional observations from a re-analysis of the deposited data

Results flagged for a closer look

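The log2 ratio of second to first TRB of TRBV31 in the anti-CD137 Tpex library was 0.74, far from the other 3 Teff and Tpex libraries, which lay between 0.04 and 0.10. The gap to the nearest of them was 0.907 of the whole range. Chance puts about 1 in 20 such sets past the limit used, and 9 sets were examined. In this library 66.6% of barcodes with a TRB were not in the cell table and 17.8% of cells had 2 TRB contigs. The part of either in the ratio was not tested.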

How the results depend on the processing

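None of the tested differences and ratios of TRBV20, TRBV26 and TRBV31 changed direction under the alternatives run. Untested treatment ratios did with each clonotype once: TRBV23 in Tex was 0.987 in place of 12.2, TRBV30 1.41 in place of 0.746 in Tex and 0.771 in place of 1.21 in Tpex, and the combined share in Tpex was 7.46% in anti-CD137 against 8.19% in control Ig. By exact sign-flip permutation over libraries, whose smallest p is 0.03125 with 6 libraries and 0.125 with 4, the calls were lost: TRBV20 in TRBJ2 share (-12.2 points, adjusted p = 0.066) and in length (-0.889, adjusted p = 0.0594), TRBV26 in length (-0.228, adjusted p = 0.0594), and the second TRB ratios of TRBV20 (0.41) and TRBV26 (1.09), both with adjusted p = 0.237. By cells, the TRBV26 length difference was -0.204 (limma adjusted p = 0.105). TRBV31 length passed with all barcodes (-0.212, limma adjusted p = 0.00957) and without anti-CD137 Tex (-0.254, limma adjusted p = 0.0172); over all libraries left out in turn it ran between -0.254 and -0.119. The TRBV20 second TRB ratio missed the threshold in cells with exactly 1 TRA contig (0.54, limma adjusted p = 0.0766), with all barcodes (0.31, limma adjusted p = 0.192) and without each of the 4 libraries (0.36 to 0.49). The other limma calls kept their side of the threshold when each library was left out. TRBJ2 share, length and ratio of the 3 segments otherwise stayed on their side of the threshold. The causes were not tested.

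Combined shares that moved beyond their intervals were, with at least 5 UMIs, 7.09% in anti-CD137 Teff and 6.76% in control Ig Teff. With each clonotype once they were 9.05% in anti-CD137 Tex, 7.55% in control Ig Tex and 8.19% in control Ig Tpex. Without the 10 largest clonotypes of a library they were 11.9%, 8.45% and 8.12% in these libraries, and with both chains 13.2% in anti-CD137 Tex. By cluster with each clonotype once, they were 9.16% and 8.91% in clusters 3 and 4 of anti-CD137 Tex, 7.47% and 10.2% in those of control Ig Tex, and 8.22% in cluster 1 of control Ig Tpex. For single segments, 25 recomputed shares moved and 155 did not. No paired analysis was possible because each group has 1 library and its number pairs nothing. With every cell counted in all 6 libraries the TRBV31 ratio was 0.11 (limma adjusted p = 0.561). The 4-library ratio, and leaving out pairs with equal UMIs, were chosen after seeing the data. Few chain pairs in Tex, and few TRBV23 and TRBV30 clonotypes, limit what could be tested.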
